A study of Homo sapiens with 8 samples.

Results

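The transcripts described here are those of the mitochondrial ribosomal proteins, taken as all genes of the deposited tables whose symbol is MRPL or MRPS followed by a number and at most 1 letter A, B or C. Of the 63677 genes counted, 86 identifiers carried such a symbol, and keeping the identifier with the most counts for each symbol left 76 genes, 47 with an MRPL and 29 with an MRPS symbol. They were measured by RNA sequencing in MOLT-4 and DND-41, which are established human cell lines from T-cell acute lymphoblastic leukaemia. Both lines were treated for 24 h with 100 nM ACBI-1 or with its solvent DMSO, giving 4 groups (MOLT-4 with ACBI-1, MOLT-4 with DMSO, DND-41 with ACBI-1, DND-41 with DMSO) of 2 libraries. ACBI-1 is a degrader that brings the bromodomain proteins SMARCA2, SMARCA4 and PBRM1 of the BAF and PBAF chromatin remodelling complexes to the ubiquitin ligase VHL. Nothing in the labels says that libraries of a group came from separate cultures, so the spread behind each p-value is that between libraries and may be technical.

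Mitochondria keep ribosomes of their own, which translate the few mRNAs of the mitochondrial genome into core subunits of the respiratory chain and the ATP synthase. The rRNAs of these ribosomes come from the mitochondrial genome, while their proteins are encoded in the nucleus, made in the cytosol and imported. Many of the proteins descend from those of bacterial ribosomes and share their numbers, and the others were gained by the mitochondrial ribosome. MRPL genes encode proteins of the large subunit and MRPS genes mostly proteins of the small subunit. MRPS18A and MRPS30 have been placed in the large subunit and MRPS36 with the oxoglutarate dehydrogenase complex in later work.

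The start regions of these genes are shown first, because binding sites of NRF1, of the ETS factor GABP and of YY1 are textbook features of nuclear genes for mitochondrial proteins. Each sequence below covers the 250 bases before the start of a gene, from RefSeq on GRCh38.p14, read 5′ to 3′ on the strand of the gene. The 5 genes from MRPL3 to MRPL4 had lower transcripts with ACBI-1 in MOLT-4, and MRPL51 is shown as an abundant gene that did not pass the test. Capitals mark the letters CCGGAAG (ETS), AAGATGGC (YY1), GCATGCGC (NRF1) and CACGTG (E-box, the core of the site that MYC and MAX bind) or their reverse complements.
MRPL3, chr3:131502972-131503221, minus strand: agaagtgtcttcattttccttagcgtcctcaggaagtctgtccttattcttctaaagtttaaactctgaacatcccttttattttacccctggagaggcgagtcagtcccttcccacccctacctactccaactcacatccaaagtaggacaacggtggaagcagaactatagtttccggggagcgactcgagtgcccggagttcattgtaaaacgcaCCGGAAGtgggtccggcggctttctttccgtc
MRPS34, chr16:1773135-1773384, minus strand: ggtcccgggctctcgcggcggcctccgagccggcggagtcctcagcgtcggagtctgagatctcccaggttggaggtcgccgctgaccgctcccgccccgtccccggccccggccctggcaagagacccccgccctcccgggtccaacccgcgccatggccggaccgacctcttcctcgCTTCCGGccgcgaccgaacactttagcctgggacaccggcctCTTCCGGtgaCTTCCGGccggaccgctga
MRPL17, chr11:6683341-6683590, minus strand: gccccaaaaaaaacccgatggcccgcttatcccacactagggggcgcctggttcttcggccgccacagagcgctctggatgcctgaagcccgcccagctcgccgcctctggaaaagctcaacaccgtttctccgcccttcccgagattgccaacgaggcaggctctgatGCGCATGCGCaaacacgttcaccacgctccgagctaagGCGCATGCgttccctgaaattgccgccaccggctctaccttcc
MRPL36, chr5:1799838-1800087, minus strand: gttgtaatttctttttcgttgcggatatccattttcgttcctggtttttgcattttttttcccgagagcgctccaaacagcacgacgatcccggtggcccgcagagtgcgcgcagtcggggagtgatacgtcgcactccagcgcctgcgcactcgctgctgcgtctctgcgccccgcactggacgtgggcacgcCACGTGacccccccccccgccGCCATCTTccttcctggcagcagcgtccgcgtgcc
MRPL4, chr19:10251701-10251950, plus strand: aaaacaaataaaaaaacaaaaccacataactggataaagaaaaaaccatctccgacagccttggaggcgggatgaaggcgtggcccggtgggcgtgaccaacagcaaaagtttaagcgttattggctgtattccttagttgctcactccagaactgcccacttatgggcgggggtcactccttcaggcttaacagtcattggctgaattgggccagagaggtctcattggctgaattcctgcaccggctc
MRPL51, chr12:6493263-6493512, minus strand: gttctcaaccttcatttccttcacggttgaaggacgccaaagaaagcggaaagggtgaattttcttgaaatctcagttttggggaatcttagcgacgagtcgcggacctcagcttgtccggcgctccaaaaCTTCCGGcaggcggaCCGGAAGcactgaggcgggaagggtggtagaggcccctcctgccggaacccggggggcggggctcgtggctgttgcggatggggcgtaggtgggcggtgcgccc

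Among the 67 mitochondrial ribosomal protein genes matched by symbol to a RefSeq window of 250 bases before to 50 bases after the start, 28 (41.8%) held CCGGAAG on either strand. The same letters stood in 14.2% of 15842 windows of protein-coding genes. AAGATGGC was found in 20 of the 67 (29.9%), against 3.91% of protein-coding genes. GCATGCGC was found in 6 (8.96%), against 4.26%, and in MRPL17 a pair of its matches on opposite strands overlapped. CACGTG stood in 6 windows (8.96%), close to its 8.88% share of protein-coding genes. GGGCGG, the core of the SP1 site, stood in 61.2% of the members' windows and 58.5% of those of protein-coding genes, and CCAAT in 29.9% and 36.4%. CCGGAAG stood in 14 of the 37 windows of members that were lower with ACBI-1 in MOLT-4 (37.8%) and in 13 of the 29 windows of members that were higher or did not pass (44.8%). AAGATGGC stood in 10 of these 37 windows (27.0%) and in 10 of these 29 (34.5%). A match of letters is a description of the window and not a site.

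Library totals ran from 21308737 to 22067644 counts, of which the 76 genes took 64575 to 96508. Levels are given in CPM, the counts of a gene scaled to a common library total by TMM, a factor that allows for differences in RNA composition. As a chi-square per degree of freedom, where counting noise alone gives about 1, the pair of ACBI-1 libraries of MOLT-4 differed by 2.85, the DMSO pair by 1.56, and pairs across treatments by 55.7 to 57.03. DND-41 libraries went by number and not by label: pairs with the same number had a chi-square per degree of freedom of 6.001 and 5.53, and pairs with different numbers one of 70.2 to 84.1. The authors' deposited table for DND-41 matched a comparison of number 2 with number 1 libraries, to within 0.001 on the log2 scale in 100% of 27069 genes. The authors' deposited table for MOLT-4 matched the labelled treatments in 100% of 27777 genes. Whether labels or numbers carry the treatment in DND-41 cannot be told from the files, nor can the direction of the deposited fold changes relative to ACBI-1, so DND-41 is described both ways. The T-lineage marker CD3E was at 723 to 808 CPM in MOLT-4 and 763 to 1116 CPM in DND-41. Other markers of its list differed more. With DMSO, 5 of 9 were higher in MOLT-4 than in DND-41 and 1 lower (log2 -2.36 to 9.39), where 17.7% and 17.4% of all genes were. With ACBI-1 in MOLT-4, 6 of the 9 fell and 2 rose (-2.63 to 0.64), where 30.2% and 28.2% of all genes did. Summed myeloid markers stayed at or below 0.462 CPM and summed erythroid markers at or below 0.0853 CPM. CD79A, a B-cell marker, was at 688 and 177 CPM in DND-41 libraries labelled ACBI-1 and 734 and 207 CPM in those labelled DMSO, with MS4A1 at 0. SMARCA4 rose in MOLT-4 by 0.26 on the log2 scale (SE 0.035, edgeR adjusted p = 3.09e-08) and PBRM1 by 0.11 (SE 0.036, edgeR adjusted p = 0.00736). SMARCA2 differed by -0.06 (edgeR adjusted p = 0.439), and the proteins that ACBI-1 degrades were not measured.

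The first question was how ACBI-1 changed the transcripts of mitochondrial ribosomal proteins in MOLT-4. Most were moderately lower. Together the 76 genes held 3963 and 4007 CPM in the ACBI-1 libraries, against 4690 and 4789 CPM in the DMSO libraries. Of 75 genes tested, 46 fell, 4 rose and 25 did not pass the edgeR quasi-likelihood test at an adjusted p of 0.05. Of all 14618 genes tested 30.2% fell and 28.2% rose, 58.4% in either direction. The members had a median log2 fold change of -0.23, against 0.01 for all genes tested, and the range was -0.66 to 0.31. Both ACBI-1 libraries lay below both DMSO libraries for 56 of the 76 genes, where 38.8% of all genes did so. For 10 genes both ACBI-1 libraries lay above both DMSO libraries (38.9% of all genes), and for 10 the groups overlapped.

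These directions depended in part on the scaling. With libraries scaled by their total counts, the median of all genes moved by 0.119 (log2), and 5804 genes were called higher and 3031 lower, against 4120 and 4413 with TMM. The members' median was then -0.11, with 38 called lower and 12 higher. Of the 50 calls, 39, all of them falls, were also made in the authors' deposited table, which called 0 members higher, where 20.3% of 16234 genes were lower and 14.7% higher. With the spread of all 8 libraries pooled, 544 genes and 0 members passed by edgeR. The 9 T-lineage markers summed to 2599 and 2481 CPM with ACBI-1, against 3115 and 3129 CPM with DMSO, and their part in the members' values was not tested. Levels here are relative to the library total. In bulk RNA, a smaller share of cells with a transcript and less of it per cell cannot be told apart.

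**Figure D1:**
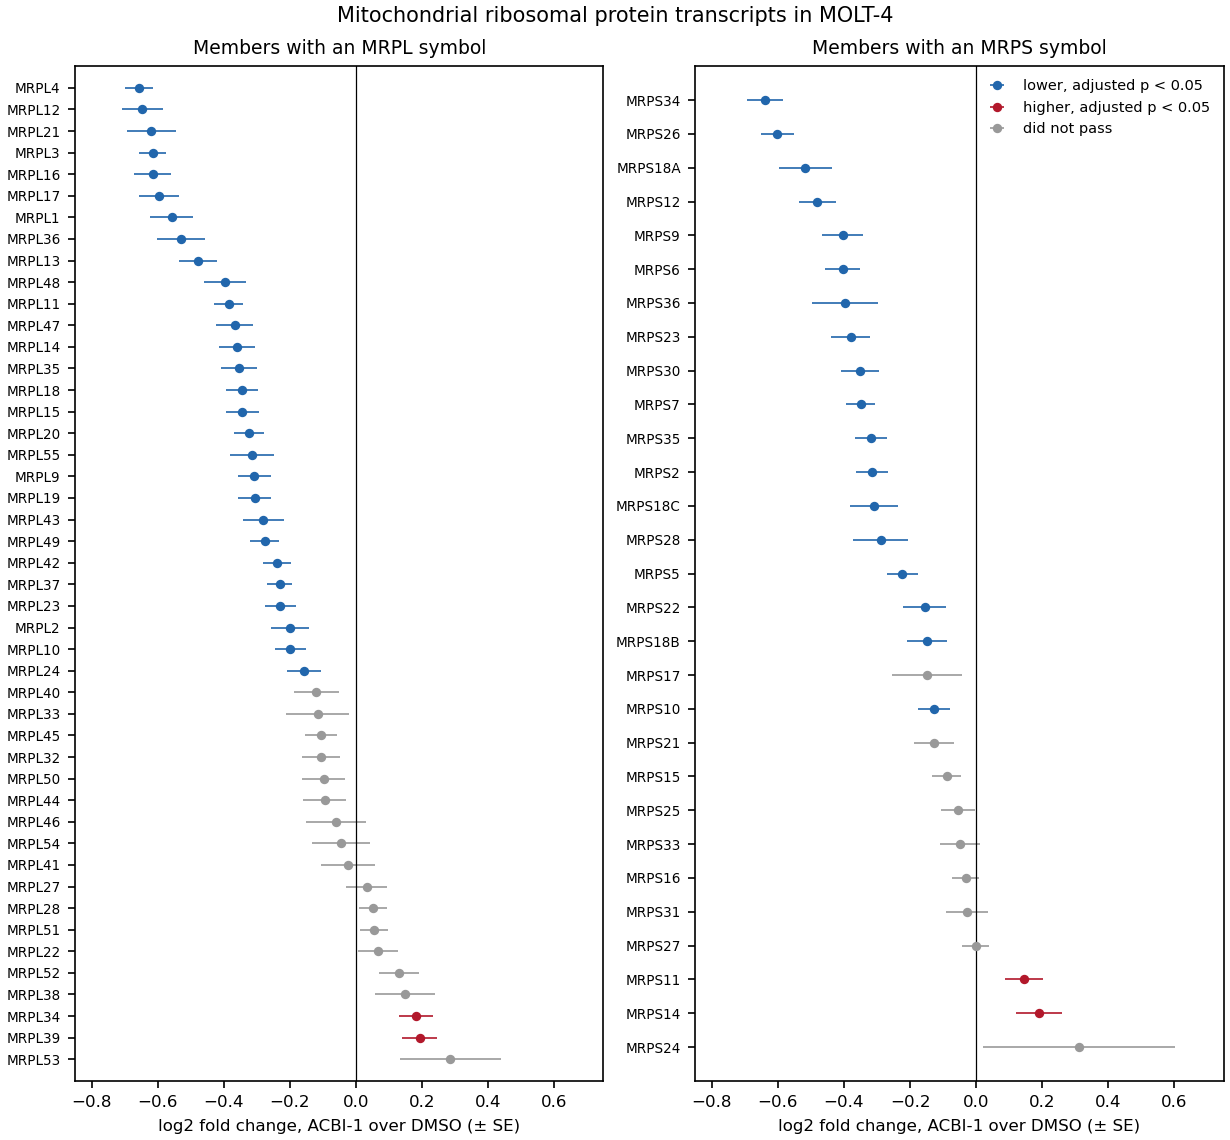
Log2 fold change (horizontal axis, ACBI-1 over DMSO) of 75 mitochondrial ribosomal protein transcripts in MOLT-4, with bars of 1 standard error from edgeR, MRPL genes on the left and MRPS genes on the right. The 46 genes in blue fell, from MRPL4 at -0.66 to MRPS10 at -0.13, the 4 in red rose and the 25 in grey did not pass.

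MRPL4 had the most negative fold change. This protein of the large subunit has a bacterial counterpart that reaches into the wall of the peptide exit tunnel. MRPL4 (ENSG00000105364) was at 102 and 95.7 CPM with ACBI-1 and at 152 and 160.1 CPM with DMSO, which is -0.66 on the log2 scale (SE 0.043, edgeR adjusted p = 2.94e-17). MRPL3 (ENSG00000114686), a large-subunit protein whose bacterial counterpart sits near the peptidyl transferase centre, was at 137 and 147 CPM with ACBI-1 and at 216 and 219.9 CPM with DMSO (-0.62, SE 0.040, edgeR adjusted p = 1.49e-17). In both genes the ACBI-1 libraries lay well below the DMSO libraries, with no overlap.

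MRPL12 (ENSG00000262814) encodes the protein of the stalk that recruits translation factors. It was at 38.2 and 34.02 CPM with ACBI-1 and at 54.1 and 59.2 CPM with DMSO (-0.65, SE 0.061, edgeR adjusted p = 2.54e-12). MRPL1 (ENSG00000169288) encodes the protein of the other stalk, beside the exit site of tRNA. It was at 27.1 and 28.02 CPM with ACBI-1 and at 38.96 and 42.3 CPM with DMSO (-0.56, SE 0.065, edgeR adjusted p = 6.74e-10). Both stalk proteins thus had lower transcripts in each ACBI-1 library than in either DMSO library.

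Large-subunit proteins with bacterial counterparts made up most of the remaining falls of this size. MRPL16 was at 40.01 and 39.2 CPM with ACBI-1 and at 59.4 and 62.2 CPM with DMSO (-0.61, edgeR adjusted p = 7.1e-13). MRPL21 was at 18.4 and 21.2 CPM with ACBI-1 and at 31.2 and 29.9 CPM with DMSO (-0.62, edgeR adjusted p = 1.79e-09). MRPL17, whose start region above holds the NRF1 letters, was at 38.1 and 36.6 CPM with ACBI-1 and at 52.8 and 60.3 CPM with DMSO (-0.60, edgeR adjusted p = 1.96e-11). The groups did not overlap in any of these 3 genes. MRPL36, the smallest of the large-subunit proteins in bacteria, was at 20.1 and 20.7 CPM with ACBI-1 and at 29.1 and 29.98 CPM with DMSO (-0.53, edgeR adjusted p = 2.62e-08).

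Of the small subunit, MRPS34 and MRPS26 fell most, and neither has a bacterial counterpart. MRPS34 (ENSG00000074071) was at 42.3 and 41.5 CPM with ACBI-1 and at 63.7 and 67.1 CPM with DMSO (-0.64, SE 0.055, edgeR adjusted p = 1.32e-13). MRPS26 (ENSG00000125901) was at 51.2 and 53.03 CPM with ACBI-1 and at 80.1 and 78.3 CPM with DMSO (-0.60, SE 0.051, edgeR adjusted p = 8.55e-14). In each of the 2 genes every ACBI-1 library was below every DMSO library. Apart from the fit with pooled spread, all 10 of these genes were also called lower when any single MOLT-4 library was left out, with scaling by total counts, with DESeq2 and in the authors' deposited table.

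**Figure D2:**
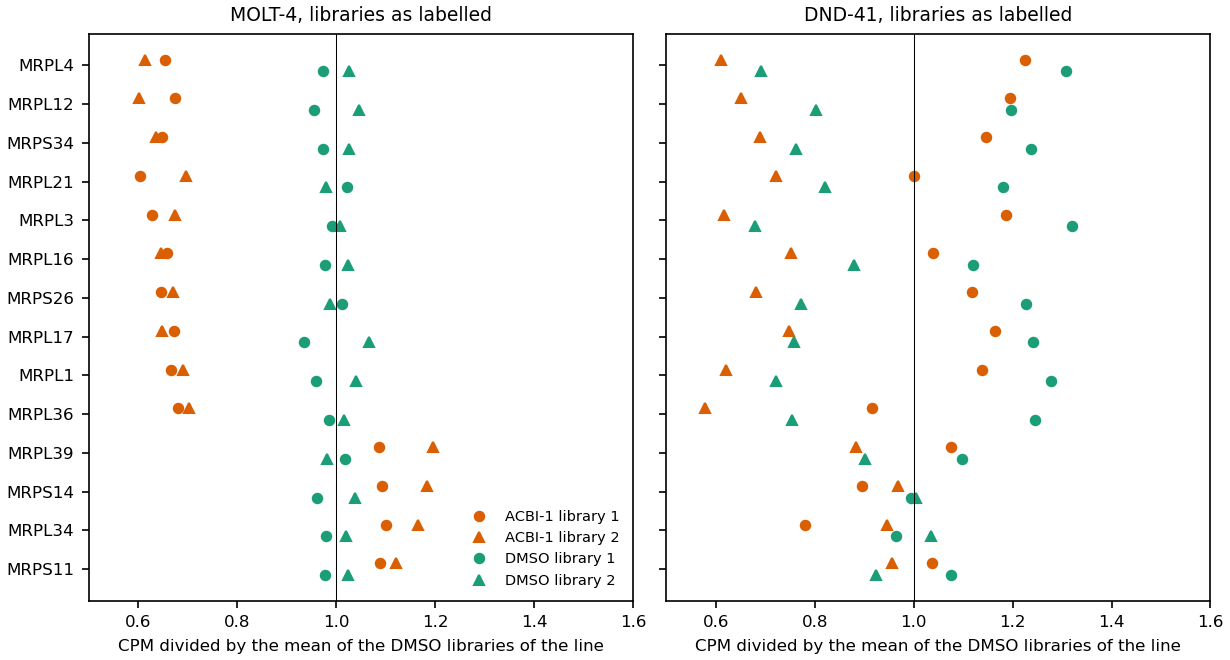
CPM of each library divided by the mean of both DMSO libraries of the same line (horizontal axis), for the 10 members that fell most and the 4 that rose in MOLT-4; orange is ACBI-1, green DMSO, circles library 1 and triangles library 2. In MOLT-4 the orange and green points separate for all 14 genes, while in DND-41 the circles and triangles separate for all of the upper 10, as for MRPL3 with 167 and 186 CPM in the libraries numbered 1.

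The 4 members that rose did so by small steps. MRPL39, a large-subunit protein without a bacterial counterpart, was at 62.2 and 68.4 CPM with ACBI-1 and at 58.3 and 56.2 CPM with DMSO (0.19, edgeR adjusted p = 0.00212). MRPL34, a small protein with a bacterial counterpart, was at 65.3 and 69.05 CPM with ACBI-1 and at 58.1 and 60.5 CPM with DMSO (0.18, edgeR adjusted p = 0.00247). The groups were close but did not overlap. MRPS14 and MRPS11, proteins of the small subunit with bacterial counterparts, had log2 fold changes of 0.19 (edgeR adjusted p = 0.0175) and 0.15 (edgeR adjusted p = 0.0263). MRPS14 was at 29.5 and 31.99 CPM with ACBI-1 and at 25.99 and 28.04 CPM with DMSO. MRPS11 was at 47.5 and 48.9 CPM with ACBI-1 and at 42.6 and 44.7 CPM with DMSO. Testing all genes with no filter left 0 members called higher, where 9.22% of genes were. The authors' deposited table also had 0, where 14.7% of genes were higher. Fewer members were called higher when any single MOLT-4 library was left out. ACBI-1 replicate 2 held COL1A1, a marker of stromal cells, at 14.4 CPM. The other ACBI-1 library had 0.511 CPM and the DMSO libraries 0.396 and 1.14 CPM, and its part in the rises was not tested. Without ACBI-1 replicate 2 the members' median log2 fold change was -0.24, against 0.01 for all genes.

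Some abundant members did not pass. MRPS27, a small-subunit protein with pentatricopeptide repeats, was at 144 and 147 CPM with ACBI-1 and at 144 and 148 CPM with DMSO (0.00, SE 0.040, edgeR adjusted p = 0.979). MRPS16, a small-subunit protein of bacterial origin, was at 117 CPM in both ACBI-1 libraries and at 118 and 121 CPM with DMSO (-0.03, SE 0.042, edgeR adjusted p = 0.538). MRPL51 was at 121 and 120.0 CPM with ACBI-1 and at 114 and 118 CPM with DMSO (0.06, SE 0.042, edgeR adjusted p = 0.261), and was called higher with scaling by total counts (0.17, edgeR adjusted p = 0.0003). MRPS27 and MRPS16 were singled out after their values were seen.

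Genes with either letter fell more often than they rose. Of 46 MRPL genes tested 28 fell and 2 rose (median log2 fold change -0.23), and of 29 MRPS genes 18 fell and 2 rose (median -0.22). Genes numbered as bacterial ribosomal proteins are, with MRPS24 and MRPL47 added as known counterparts, fell in 32 of 45 cases and rose in 3 (median -0.31). The other members fell in 14 of 30 cases and rose in 1 (median -0.11). Of all genes tested, 30.2% fell and 28.2% rose. With scaling by total counts the median of these other members was 0.01, where the bacterial type had -0.19. No test of the difference between these classes was made. Across the 75 members, more abundant transcripts tended to have more negative fold changes (Pearson -0.38, Spearman -0.25, across genes, between the level in the DMSO libraries and a fold change that uses the same libraries).

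**Figure D3:**
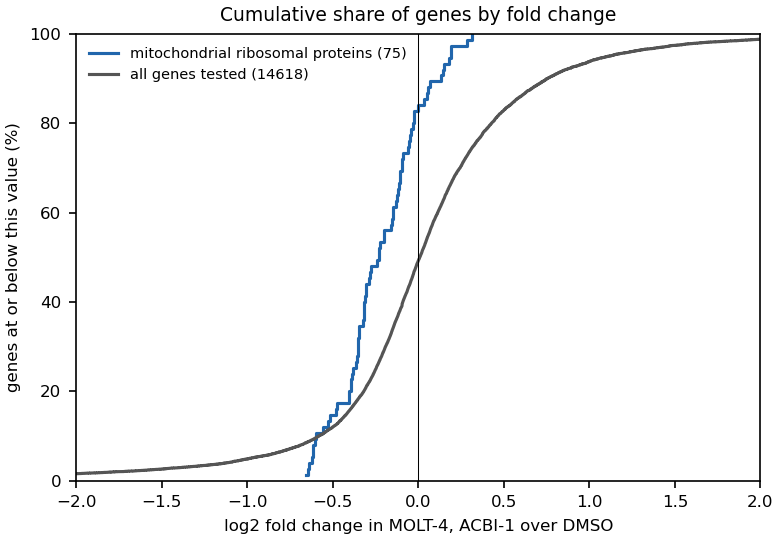
Cumulative share of genes (vertical axis, percent) at or below a given log2 fold change in MOLT-4 (horizontal axis, ACBI-1 over DMSO), for 75 mitochondrial ribosomal proteins in blue and all 14618 genes tested in grey. The blue curve crosses its middle at -0.23 and stays between -0.66 and 0.31, while the grey curve crosses its middle at 0.01 and has long tails on both sides.

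The MRPS18 genes are paralogs that share a number in their symbols. MRPS18A was at 18.6 and 21.1 CPM with ACBI-1 and at 30.9 and 25.96 CPM with DMSO (-0.52, edgeR adjusted p = 4.94e-07). MRPS18C was at 23.2 and 22.4 CPM with ACBI-1 and at 29.5 and 27.1 CPM with DMSO (-0.31, edgeR adjusted p = 0.000312). All 3 paralogs passed as lower, the third by less. MRPS18B was at 42.9 and 38.9 CPM with ACBI-1 and at 45.7 and 45.1 CPM with DMSO (-0.15, edgeR adjusted p = 0.0314), and the call was lost with scaling by total counts (-0.03), with DESeq2, with no filter, in the authors' deposited table, and without ACBI-1 replicate 2 (-0.08) or either DMSO library. Transcripts of the 2 other genes whose products are not in the small subunit were lower as well. MRPS30 was at 47.3 and 55.1 CPM with ACBI-1 and at 65.4 and 65.5 CPM with DMSO (-0.35, edgeR adjusted p = 1.09e-06). MRPS36 was at 10.1 and 10.4 CPM with ACBI-1 and at 13.5 and 13.6 CPM with DMSO (-0.40, edgeR adjusted p = 0.000751), and missed the threshold in the authors' deposited table.

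Levels differed widely among the members. MRPL45 and MRPS21 had no exon length and so no level per kilobase. Among the other members, per kilobase of exon from GENCODE 29 models, the mean level in MOLT-4 with DMSO was highest for MRPL37 (82.7 CPM per kb), MRPL3 (80.3 CPM per kb), MRPL51 (74.96 CPM per kb), MRPL18 (72.1 CPM per kb) and MRPS26 (70.3 CPM per kb). The 3 lowest were MRPL46 (2.38 CPM per kb), MRPS24 (0.465 CPM per kb) and MRPL30, which had 0 counts in both libraries. The length was that of the merged exons of all annotated transcripts of a gene, so the ranking depends on it. MRPL46 averaged 15.3 CPM over 6432 bases, while MRPL53, ranked above MRPL46, averaged 4.58 CPM over 1344 bases. MRPL30 held 12 counts over all 8 libraries and was the one member not tested. Annotated genes overlap it on the same strand, LIPT1 and C2orf15 among them, and a second identifier with its symbol held 11 counts. How shared reads were counted is not given in the sources used here. MRPS24 held 205 counts over the 8 libraries and is overlapped on the same strand by the read-through gene URGCP-MRPS24. MRPL37, the most abundant per kilobase among members with a length, was at 182 and 177 CPM with ACBI-1 and at 213 and 208 CPM with DMSO (-0.23, edgeR adjusted p = 1.28e-06). MRPL18, whose bacterial counterpart binds rRNA, was at 74.7 and 81.1 CPM with ACBI-1 and at 97.97 and 100.3 CPM with DMSO (-0.34, edgeR adjusted p = 3.19e-08).

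Opposite-strand genes with a row in the counts overlap the exons of 28 members, and the strand setting of the counting is not given in the sources used here. MRPS11 is overlapped on the opposite strand over 516 bases by a gene that was not counted. In 18 members the opposite gene held over 10% of the member's counts. Of the 46 members that fell, 34 had no such opposite-strand partner, MRPL4, MRPL3, MRPL12 and MRPS34 among them. This leaves out same-strand overlaps and takes the whole count of the partner, however short the overlap. MRPS5, which fell, is overlapped on the same strand over 550 bases by ZNF514. ZNF514 held 18.9% of its counts and had a log2 fold change of 0.89 in MOLT-4. MRPL12 is overlapped on the same strand over 701 bases by a gene with 0 counts. CACYBP, opposite MRPS14, held 409% of its counts over the 8 libraries and had a log2 fold change of -0.25 in MOLT-4. NCAPD2, opposite MRPL51, held 598% and had a log2 fold change of 0.28. ABHD8, opposite MRPL34, held 20.4% of its counts and had a log2 fold change of 1.02 in MOLT-4.

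The second question was whether DND-41 responded alike. With the libraries as labelled, edgeR called 0 of 14602 genes (0%), and DESeq2 also called 0. At an unadjusted p under 0.05, edgeR had 37 genes, of which 0 were members. The 75 members had a median log2 fold change of -0.13, with 67 negative values, against a median of 0.00 for all genes. Its sign turned on single libraries: the median was 0.02 without ACBI-1 replicate 2 and 0.10 without DMSO replicate 1, against -0.29 without ACBI-1 replicate 1 and -0.33 without DMSO replicate 2. Both libraries labelled ACBI-1 lay below both labelled DMSO for 10 members, where 7.83% of all genes did so, and above both for 0 members, where 8.27% of all genes did so. Together the 76 genes held 3616 and 2733 CPM in the libraries labelled ACBI-1 1 and 2, against 3933 and 2954 CPM in those labelled DMSO 1 and 2. The larger gap was between numbers, and the groups as labelled overlapped. The fit above leaves the library number out. With the number as a block, edgeR called 16 of 75 members lower and 0 higher, where 3.92% of genes were lower and 5.32% higher. The labels do not say that equal numbers share a culture.

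The authors' deposited table for DND-41 gave 46 of 75 members as lower and 0 as higher at an adjusted p of 0.05, where 21.6% of 14883 genes were lower and 15.2% higher. The median log2 fold change of the members in the authors' deposited table was -0.41, against 0.00 for all its genes. MRPL4 was lowest in the authors' deposited table, at -0.97 (deposited adjusted p = 4.86e-19), and its libraries numbered 2 stood at 48.8 (labelled ACBI-1) and 55.4 CPM (labelled DMSO), against 98.00 and 105 CPM in those numbered 1. MRPL3 followed at -0.96 in the authors' deposited table (deposited adjusted p = 2.48e-22), with 87.1 and 95.99 CPM in the libraries numbered 2 and 167 and 186 CPM in those numbered 1. In both genes the libraries numbered 2 lay well below those numbered 1, whatever their label. MRPL1 had -0.86 (deposited adjusted p = 1.11e-07) in the authors' deposited table. MRPL15, a large-subunit protein of bacterial type, had -0.83 (deposited adjusted p = 7.59e-11) there, with 31.6 and 37.2 CPM in the libraries numbered 2 and 58.9 and 62.2 CPM in those numbered 1. CD79A moved the same way as these members between the numbers, and its part in them was not tested.

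The members that were low in MOLT-4 with ACBI-1 were largely those that the authors' deposited table for DND-41 had as low. Of the 46 lower in MOLT-4 and the 46 lower in the authors' deposited table, 41 were the same genes, 89.1% of each list. Each list held 61.3% of the 75 members. Over all 13383 genes tested in both, 4115 were lower in MOLT-4 and 3050 in the authors' deposited table. Of these, 2371 were lower in both, 57.6% of those lower in MOLT-4 and 77.7% of those lower in the authors' deposited table. The members' lists hold a larger part of their set, which by itself raises the share in common. Across the 75 members the fold changes of MOLT-4 and of the authors' deposited table had a Pearson correlation of 0.776 and a Spearman correlation of 0.774, and across all 13383 genes 0.606 and 0.645. Genes are not independent replicates, and each set of fold changes rests on 4 libraries.

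**Figure D4:**
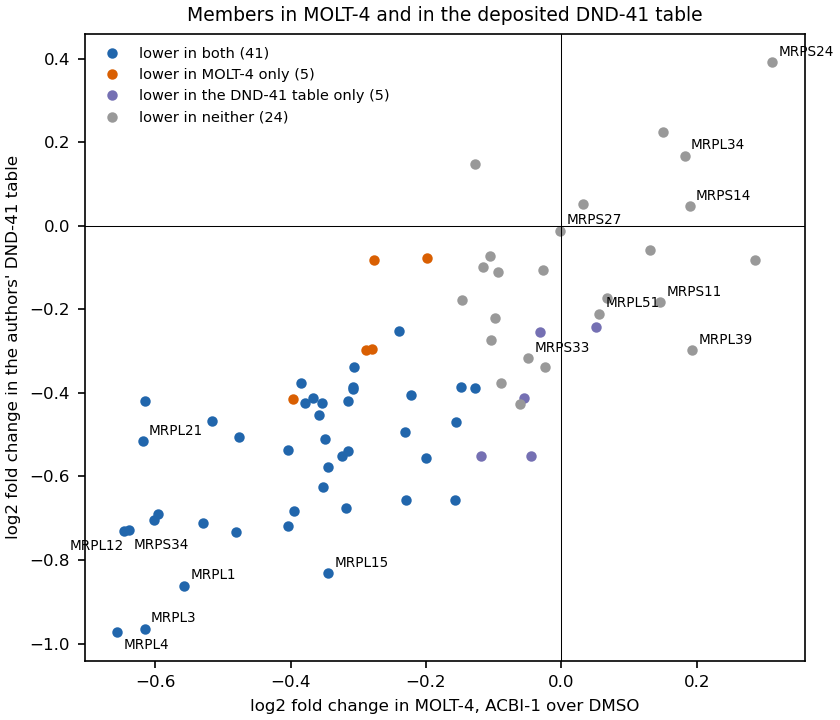
Log2 fold change of 75 members in MOLT-4 (horizontal axis, ACBI-1 over DMSO) against the value in the authors' deposited DND-41 table (vertical axis), which equals libraries numbered 2 over libraries numbered 1. The 41 members lower in both are blue and reach down to MRPL4 and MRPL3 at -0.97 and -0.96; 5 members were lower in MOLT-4 only and 5 in the deposited table only.

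The difference of the treatment effect between the lines was tested in 1 edgeR fit of the 8 libraries as labelled. It called 63 of 16047 genes (0.393%, with 0.125% higher and 0.268% lower) and 0 of 75 members, with 1 member, MRPL34, at an unadjusted p under 0.05, and DESeq2 called 0 members. Without any single MOLT-4 library it called 0 or 1 genes, and without any single DND-41 library 6 to 49, with 0 members each time. The spread in that fit holds the difference between the DND-41 libraries of each label, and for MRPL4 the difference was -0.53 with an SE of 0.54 (edgeR adjusted p = 0.762). With the library number as a block, 28 members were called lower and 6 higher, where 19.3% of all genes were lower and 17.2% higher.

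The third comparison set the lines side by side in the libraries labelled DMSO. MOLT-4 with DMSO had higher levels than DND-41 with DMSO for 22 members and lower levels for 2 of 75 by edgeR, where 17.7% of 15069 genes were higher and 17.4% lower, 35.1% in all. With scaling by total counts the median of all genes moved by -0.17, 2135 genes were higher and 3324 lower, against 2664 and 2629 with TMM, and 17 members were higher and 3 lower. The median log2 difference of the members was 0.47, against -0.02 for all genes. Line, culture and table cannot be told apart here. If the numbers carry the treatment in DND-41, its pair labelled DMSO holds a treated and an untreated library. The members' median was 0.68 without DND-41 DMSO replicate 1 and 0.26 without DND-41 DMSO replicate 2. MRPS33, a small-subunit protein without a bacterial counterpart, was at 38.3 and 40.1 CPM in MOLT-4 and at 9.92 and 7.25 CPM in DND-41 (2.18, SE 0.20, edgeR adjusted p = 0.00389). MRPL51 was at 114 and 118 CPM in MOLT-4 and at 45.7 and 39.5 CPM in DND-41 (1.43, SE 0.12, edgeR adjusted p = 0.00319). For both genes the lines lay far apart.

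MRPL12, the stalk protein, was at 54.1 and 59.2 CPM in MOLT-4 with DMSO and at 25.4 and 17.1 CPM in DND-41 with DMSO (1.40, edgeR adjusted p = 0.0134). MRPL14, a large-subunit protein at the face between the subunits, was at 57.8 and 58.8 CPM in MOLT-4 and at 29.5 and 19.4 CPM in DND-41 (1.24, edgeR adjusted p = 0.0186). The lines did not overlap in either gene. MRPS18B was at 45.7 and 45.1 CPM in MOLT-4 and at 80.4 and 62.3 CPM in DND-41 (-0.66, edgeR adjusted p = 0.0348). MRPS14 was at 25.99 and 28.04 CPM in MOLT-4 and at 37.5 and 37.8 CPM in DND-41 (-0.49, edgeR adjusted p = 0.0327). These 2 were the members lower in MOLT-4, and both were also lower in all 4 MOLT-4 than in all 4 DND-41 libraries. All 4 MOLT-4 libraries lay above all 4 DND-41 libraries for 29 members, where 25.5% of all genes did so, and below for 2, where 23.8% did so. The counts turned on single libraries: 67 members were higher and 4 lower without DND-41 DMSO replicate 1, where 36.9% of 15836 genes were higher and 34.6% lower. Without DND-41 DMSO replicate 2, 44 members were higher and 6 lower, where 33% of 15528 genes were higher and 30.6% lower. Without either MOLT-4 DMSO library 4 members were higher and 0 lower, where 7.36% and 7.41% of all genes were higher and 6.26% and 6.28% lower.

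**Figure D5:**
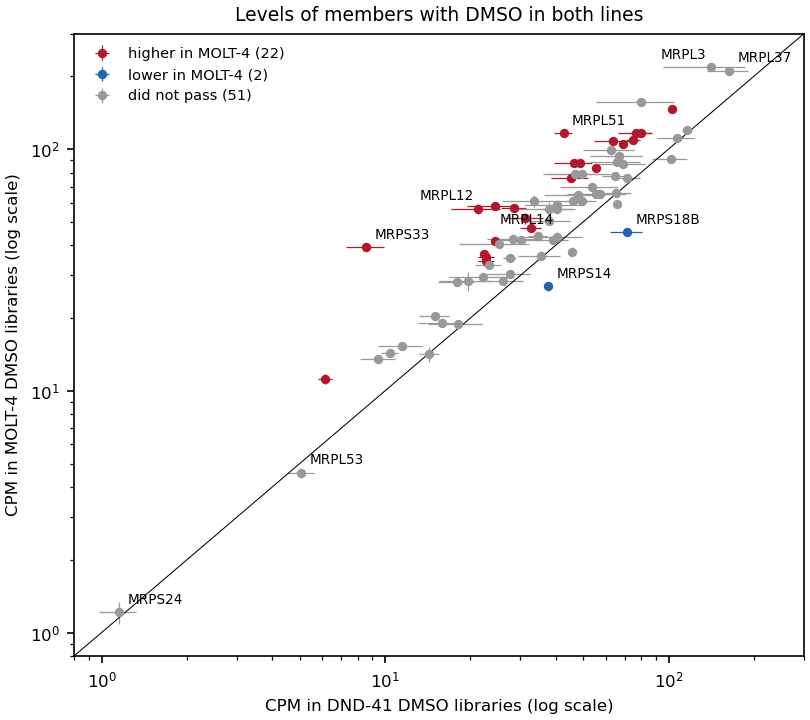
Mean CPM of 75 members in the DMSO libraries of MOLT-4 (vertical axis, log scale) and of DND-41 (horizontal axis, log scale), with bars from the lower to the higher library. The 22 members in red were higher in MOLT-4, with MRPS33 farthest from the diagonal, the 2 in blue were lower, and the horizontal bars show the wide gap between the DND-41 libraries.

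Other genes of mitochondrial translation were then read in MOLT-4, as whole lists. Of all genes tested there, 30.2% fell and 28.2% rose. Of 7 proteins of the mitochondrial ribosome with other symbols, 4 fell and 1 rose (median log2 fold change -0.14). ICT1, a ribosomal protein that releases stalled peptides, was at 21.1 and 24.5 CPM with ACBI-1 and at 40.1 and 36.5 CPM with DMSO (-0.74, edgeR adjusted p = 4.43e-12). DAP3, a GTP-binding protein of the small subunit, had a log2 fold change of -0.32 and MRP63, of the large subunit, one of 0.14 (edgeR adjusted p = 8.86e-09 and 0.00493). Of 24 assembly factors and rRNA-modifying enzymes, 16 fell and 1 rose (median -0.20). MPV17L2, needed for assembly of the ribosome, was at 31.2 and 28.2 CPM with ACBI-1 and at 47.4 and 46.2 CPM with DMSO (-0.66, edgeR adjusted p = 3.74e-12). YBEY, a factor of rRNA processing, was at 22.6 and 24.2 CPM with ACBI-1 and at 14.8 and 14.6 CPM with DMSO (0.68, edgeR adjusted p = 1.98e-09). With scaling by total counts 7 of the assembly list fell and 3 rose.

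Of 20 translation factors and mRNA-handling proteins 16 fell and 1 rose (median -0.35). LRPPRC, which stabilises mitochondrial mRNAs, was at 271 and 275 CPM with ACBI-1 and at 346 and 353 CPM with DMSO (-0.35, edgeR adjusted p = 1.4e-11). GFM1, the elongation factor that moves the ribosome along, had a log2 fold change of -0.40 and C12orf65, a rescue factor, one of 0.49 (edgeR adjusted p = 1.06e-09 and 4.47e-10). Of 22 mitochondrial tRNA synthetases 13 fell and 2 rose (median -0.22), with KARS at -0.40 and GARS at -0.39, both of which also serve the cytosol. Of 14 genes of mitochondrial transcription and DNA replication 12 fell and 1 rose (median -0.31). TOP1MT, the mitochondrial topoisomerase, had a log2 fold change of -0.51 and POLG2, the accessory subunit of the DNA polymerase, one of 0.76.

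Of 23 genes of protein import 19 fell and 1 rose (median -0.39). TOMM40, the pore of the outer membrane, was at 183 and 180.4 CPM with ACBI-1 and at 309 and 305 CPM with DMSO (-0.75, edgeR adjusted p = 1.09e-21). Among the RNAs of the mitochondrial genome, 8 of 13 mRNAs fell and 0 rose (median -0.21), and both rRNAs fell. MT-RNR2, the large rRNA, had a log2 fold change of -0.20 (edgeR adjusted p = 3.56e-05). MT-RNR1, the small rRNA, had one of -0.14 (edgeR adjusted p = 0.000478). With scaling by total counts 3 of the mRNAs rose and 7 fell, and 1 rRNA fell. Of these 13 mRNAs the authors' deposited table for DND-41 had 0 lower and 2 higher.

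Among 79 cytosolic ribosomal protein genes 29 fell and 8 rose in MOLT-4 (median -0.05), and with scaling by total counts 10 fell and 37 rose (median 0.06). RPL8 was at 939.8 and 959.9 CPM with ACBI-1 and at 1304 and 1327 CPM with DMSO (-0.47, edgeR adjusted p = 1.19e-15). The list of transcription factors of nuclear genes for mitochondrial proteins had 4 of 10 higher and 5 lower, with a median of -0.05 that was 0.07 with scaling by total counts. MYC, which drives many genes of ribosome synthesis, was at 337 and 328 CPM with ACBI-1 and at 549 and 534 CPM with DMSO (-0.70, edgeR adjusted p = 3.16e-21). GABPA, the DNA-binding subunit of GABP, was at 169.7 and 184 CPM with ACBI-1 and at 107 CPM in both DMSO libraries (0.72, edgeR adjusted p = 6.91e-19). ESRRA, an orphan nuclear receptor, was at 15.8 and 15.6 CPM with ACBI-1 and at 36.2 and 36.4 CPM with DMSO (-1.21, edgeR adjusted p = 1.52e-18). NRF1 itself was at 47.5 and 46.1 CPM with ACBI-1 and at 45.4 and 46.7 CPM with DMSO (0.03, edgeR adjusted p = 0.721). For DND-41, the authors' deposited table had MYC at -1.64, GABPA at 0.61 and ESRRA at -1.46 on the log2 scale.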

How the data were processed

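RNA was sequenced from 8 libraries with strand-specific paired-end reads, per the labels' protocols. For each line the authors deposited a table of raw gene counts. The submitters' processing notes name STAR 2.5.2a, hg19, featureCounts and DESeq2 1.12.4; annotation and strand setting of the counting are not given in the sources used here. Per the file headers, the authors' deposited DESeq2 tables hold log2 fold changes with standard errors, p-values, a Wald score and a mean normalised signal. The word "redo" ends each MOLT-4 count column name, with no reason given.

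The test was that of edgeR 4.0.16 under R 4.3.3 (quasi-likelihood, TMM scaling, filterByExpr on low counts), each line on its own, the difference of effects in a fit of all 8 libraries and the lines in the DMSO libraries. Benjamini-Hochberg adjustment ran over all genes tested, with a threshold of 0.05. Alternatives were scaling by total counts or by DESeq2 size factors, DESeq2 1.42.0, other low-count filters, a spread shared over 8 libraries, the replicate number as a block, the deposited tables and leaving out each library. The steps were run on simulated counts, drawn independently for each library. These lacked the likeness of DND-41 libraries of equal number, so the simulation does not cover it, and its outcome is not given here. CPM used TMM factors of the 8 libraries. Exon lengths and overlaps came from GENCODE 29 and start regions from RefSeq, GRCh38.p14; 0 count columns were left unassigned.

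Members and gene lists were chosen with earlier results of these data known. Named members were the 10 lowest and up to 6 highest in MOLT-4 past the threshold with separated libraries, the 5 most and 3 least abundant per kilobase, the 4 largest line differences and deposited DND-41 changes per direction, the MRPS18 paralogs, MRPS30, MRPS36 and MRPL12, and any with under 10 counts in a library. Of other lists up to 4 genes with the smallest adjusted p were named.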

Additional observations from a re-analysis of the deposited data

Results flagged for a closer look

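In 3 members both MOLT-4 libraries with ACBI-1 were above both with DMSO, while both DND-41 libraries labelled ACBI-1 were below both labelled DMSO. Of all genes, 38.9% lay above in this way in MOLT-4 and 7.83% below in DND-41. The share of all genes that did both was not counted, so the 3 members are not read as more than other genes would show. For MRPL34 the DND-41 libraries labelled ACBI-1 held 51.3 and 62.3 CPM and those labelled DMSO 63.5 and 68.1 CPM, and the difference of the log2 effects, MOLT-4 minus DND-41, was 0.39 (SE 0.16, edgeR adjusted p = 0.497). For MRPS14 the DND-41 values were 33.7 and 36.4 CPM with the label ACBI-1 and 37.5 and 37.8 CPM with the label DMSO, and the difference was 0.29 (SE 0.14, edgeR adjusted p = 0.561). MRPL52, a large-subunit protein, held 41.8 and 40.4 CPM with ACBI-1 and 36.5 and 38.8 CPM with DMSO in MOLT-4, against 41.7 and 41.9 CPM with the label ACBI-1 and 46.9 and 44.1 CPM with the label DMSO in DND-41. Its difference was 0.25 (SE 0.12, edgeR adjusted p = 0.566), and in MOLT-4 alone MRPL52 did not pass (0.13, edgeR adjusted p = 0.0623). None of the 3 differences passed the test.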

How the results depend on the processing

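In MOLT-4, leaving out 1 library gave 42 to 43 members lower and 0 to 3 higher. Members called higher numbered 12 with scaling by total counts and 2 with DESeq2, where 39.7% and 19.1% of all genes were higher. There were 0 without the low-count filter and 0 in the authors' deposited table, where 9.22% and 14.7% of genes were higher. With the spread shared over 8 libraries 544 genes passed, and 0 members were called lower and 0 higher; the cause of these changes was not tested beyond that construction. Of the named members' results under the alternatives, 52 in MOLT-4 lost the call and 1 gained it, 271 stayed on their side of the threshold, and no direction that was called turned round. The replicate number as a block was tried although the labels do not say that equal numbers share a culture. Libraries of equal number deviated together in DND-41 (correlation 0.956 over 10448 genes) and not in MOLT-4 (0.0208), and 2 pairs cannot settle whether the numbers pair samples. With the replicate block, DND-41 as labelled gave 1349 genes (3.92% of 14602 lower, 5.32% higher), with 16 of 75 members lower and 0 higher. For the difference between the lines the block gave 5860 genes (19.3% of 16047 lower, 17.2% higher), with 28 members lower and 6 higher. For the line comparison it gave 23 members higher and 1 lower, where 17.1% of 15069 genes were higher and 16.9% lower. For DND-41 the authors' deposited table called 5472 genes, 3217 of them lower, and 46 members lower. For the difference between the lines, DESeq2 called 395 genes, leaving out 1 library gave 0 to 49 genes, and the members' median ran from -0.33 to 0.07. Between the lines with DMSO, 2162 to 11316 genes, 4 to 67 members higher and 0 to 6 members lower were called without 1 library, 1 member lower with DESeq2, and 11 members higher and 0 lower without the low-count filter. Where a group was left with 1 library, it was assumed to vary like the others. With 2 libraries per group, the fit without the block counts the wide gap between the DND-41 numbers as spread.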

Other observations

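Some members share their start region or their ends with a gene of mitochondrial function. The RefSeq windows of MRPL46 and MRPS11 on chromosome 15 overlap head to head. MRPS11 rose in MOLT-4 (0.15, edgeR adjusted p = 0.0263) and MRPL46, on the other strand, was at 15.4 and 13.98 CPM with ACBI-1 and at 15.8 and 14.8 CPM with DMSO (-0.06, edgeR adjusted p = 0.593). MRPL43 overlaps C10orf2, which encodes the mitochondrial helicase Twinkle, on the opposite strand over 149 bases, and C10orf2 held 126% of its counts. Both fell in MOLT-4, MRPL43 by 0.28 and C10orf2 by 0.49 on the log2 scale. MRPS12, whose bacterial counterpart takes part in decoding, overlaps SARS2, the mitochondrial seryl-tRNA synthetase, on the opposite strand. MRPS12 fell by 0.48 on the log2 scale (edgeR adjusted p = 6.84e-10), while SARS2, with 14.6% of its counts, had a log2 fold change of 0.04 (edgeR adjusted p = 0.837).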
